A study of Homo sapiens with 2 samples.

Results

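Transcription factors that specify the neural crest and the melanocyte, the pigment cell derived from it, were described in 2 RNA libraries of a ZEB1 knockdown study. The set held 10 genes of the 16085 genes and loci listed in either file: MITF, SOX10, PAX3, TFAP2A, SOX9, SOX5, FOXD3, TFE3, TFEB and ALX1. They were chosen as a list of names, with earlier results of these data known, and matched by Entrez Gene identifier. All 10 were listed in both libraries. Poly(A)-selected RNA had been sequenced on DNA nanoballs from 1 culture carrying a control hairpin RNA (shCtrl) and 1 culture with a hairpin against ZEB1 (shZEB1). Both carry the label MDA-MB-231, a human cell line derived from a triple-negative breast cancer. The sources used here do not give the hairpin sequence, its vector, the number of clones or any other allele or agent.

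Melanocytes arise from the neural crest, a migratory cell population at the border of the embryonic neural plate. FOXD3, PAX3, TFAP2A, SOX9 and SOX10 are among the factors that specify the crest, and SOX10 and PAX3 then act on the gene for MITF, the master regulator of the pigment cell. MITF binds E-box motifs such as the M-box in the promoters of pigment genes. TFE3 and TFEB are its close relatives, and in most cells they regulate lysosome and autophagy genes under the control of nutrient signalling. In melanoma, tumours vary in MITF activity, and low activity is known to go with a more invasive, crest-like state. ZEB1 and its paralog ZEB2 are repressors, and expression can switch between them as melanoma cells move between such states.

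Reads assigned to genes and loci came to 8740584 in shCtrl, where 15365 were listed, and to 8441491 in shZEB1, where 15447 were. Levels are FPKM, fragments scaled to gene length and to the library total, as deposited by the authors. With 1 library per group, no spread between cultures was measured and no test between conditions was made. Each read ratio is shZEB1 over shCtrl, scaled to the library totals, with an exact binomial 95% interval that covers counting error only. ZEB1 itself was scarce, with 46 reads (0.88 FPKM) in shCtrl against 15 reads (0.31 FPKM) in shZEB1. The read ratio was 0.338 (interval 0.175 to 0.616). Both levels fall short of the FPKM minimum of 1 used below, so ZEB1 is not among the measured genes. In bulk RNA, fewer cells of a type and less RNA per cell cannot be told apart.

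Melanocyte markers were abundant in both libraries despite the breast line label, and markers of basal-type breast lines were present in part. Of 15 melanocyte markers, 10 reached an FPKM of 10 in each library, and the sum over all 15 was 1746 in shCtrl against 1256 in shZEB1. Most of that difference came from PMEL (703 and 405 FPKM) and DCT (225 and 123), while TYRP1 had 223 and 228. By the read interval, 1 of the 13 measured markers was higher, 7 were lower and 5 included 1, beside 27.9% and 21.4% of all measured genes. Not every defining marker of the lineage was present: the receptor gene KIT had 1 read in shZEB1 and was missing from the shCtrl file, and OCA2, a melanosomal transporter gene, was in neither file. Of 18 markers of basal-type breast lines, 7 reached that level, with sums over the 18 of 786 in each library. Those 7 included MSN, ANXA1 and CD44, which many cell types express, while KRT5 and KRT19 were in neither file. EGFR had 0.52 and 0.65 FPKM, KRT17 had 1 read in each library, and KRT14 had 1 read in shZEB1 only. Of 15 luminal breast markers 3 reached an FPKM of 10 in each library, XBP1, KRT18 and KRT8, and EPCAM and ELF5 were in neither file. KRT18 and KRT19 stand in both breast lists, and KRT18 is also among the 7 basal markers. Markers of other cells were scarce. The summed FPKM in shCtrl and shZEB1 was 3.07 and 5.16 over 9 fibroblast markers, 2.11 and 2.70 over 8 endothelial markers, 24.99 and 11.2 over 9 macrophage markers, and 18.3 and 15.2 over 8 keratinocyte markers. CD68 supplied most of the macrophage sum (18.7 and 4.12) and KRT10 most of the keratinocyte sum (17.7 and 14.4), while PTPRC and CD163 were in neither file. No part of these markers in the values below was tested.

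The factors spanned a wide range of abundance, led by SOX10 and MITF. SOX10 (Entrez Gene 6663, chr22:37972312-37984555, GRCh38.p14) had an FPKM of 175 in shCtrl against 171 in shZEB1. This placed it at rank 387 of the 15365 genes listed in shCtrl and rank 352 of the 15447 in shZEB1, within the top 2.52% and 2.28%. MITF (Entrez Gene 4286, chr3:69739464-69968332) followed at rank 1523 and rank 1518, within the top 9.91% and 9.83%. At the other end, TFEB (Entrez Gene 7942, chr6:41683978-41736223) stood at rank 10705 and rank 10980, and 69.7% and 71.1% of the genes had a level at or above it. The median FPKM over all listed genes was 7.04 in shCtrl and 7.15 in shZEB1. Of the 10 factors, all but SOX5 and TFEB lay above that median in shCtrl, and all but SOX5, FOXD3 and TFEB did in shZEB1.

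**Figure D1:**
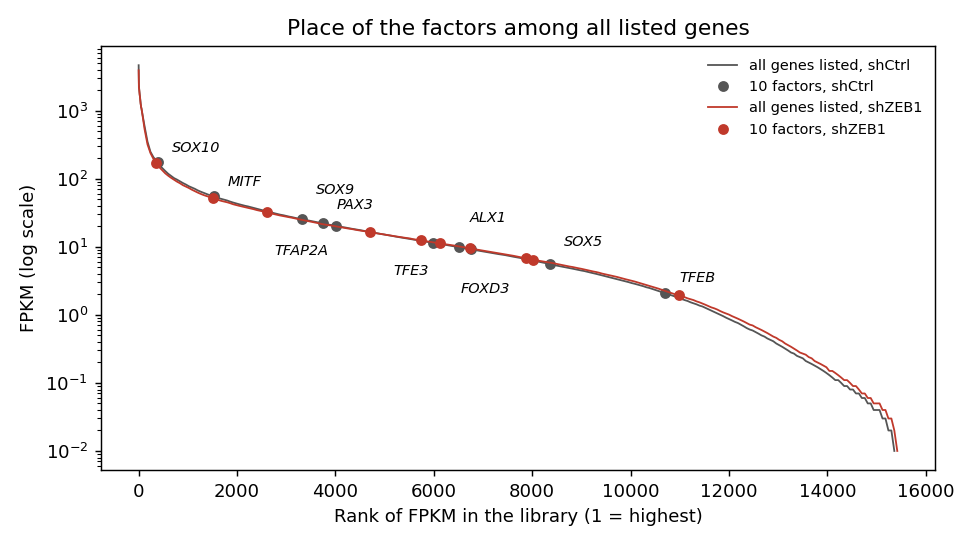
FPKM (log scale) against the rank of FPKM within each library, with lines for all listed genes and points for the 10 factors, in grey for shCtrl and red for shZEB1. SOX10 sits in the steep upper end of the curve at ranks 387 and 352, MITF at ranks 1523 and 1518, and TFEB lowest at ranks 10705 and 10980.

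The order of the factors' levels was clear at the top and bottom and less so in the middle. In shCtrl it ran SOX10, MITF, SOX9, PAX3, TFAP2A, TFE3, ALX1, FOXD3, SOX5 and TFEB. There, the Poisson intervals of the FPKM of SOX9 and PAX3 overlapped, as did those of PAX3 and TFAP2A, of TFE3 and ALX1, and of ALX1 and FOXD3. In shZEB1, TFE3 stood before TFAP2A and SOX5 before FOXD3, and the overlapping neighbours were TFE3 with TFAP2A, TFAP2A with ALX1, and SOX5 with FOXD3. SOX9 had 1.25 times the FPKM of TFAP2A in shCtrl and 2.85 times in shZEB1. SOX10 kept a lead of 3.17 times over MITF in shCtrl and 3.27 times in shZEB1.

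**Figure D2:**
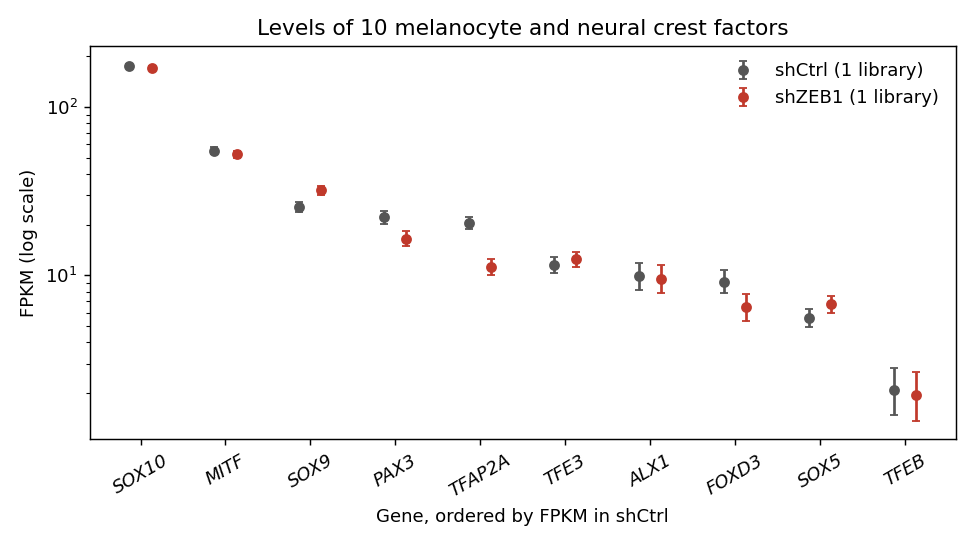
FPKM (log scale) of the 10 factors, ordered by their level in shCtrl, with 1 point per library and bars for the 95% Poisson interval of the reads behind it (counting error only). The points of SOX10 and MITF nearly coincide between libraries, TFAP2A drops from 20.5 to 11.3, and SOX9 stands higher in shZEB1 at 32.1 against 25.5.

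None of the 10 factors differed 2-fold between the libraries. A gene was counted by size where its FPKM reached 1 in either library, its log2((FPKM shZEB1 + 1)/(FPKM shCtrl + 1)) reached 1 or -1, and its read interval excluded 1. This rule counted 0 factors as higher and 0 as lower, beside 0.937% and 1.61% of all 12274 measured genes and loci (2.55% in either direction). By the read interval alone, 1 factor was higher (SOX9) and 3 were lower (TFAP2A, FOXD3 and PAX3). The interval excluded 1 for 27.9% of all measured genes on the higher side and for 21.4% on the lower side, so that 4 of 10 factors against 49.3% of all genes is not a share above the background. The median log2 ratio of the 10 was -0.06, beside 0.02 over all measured genes.

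**Figure D3:**
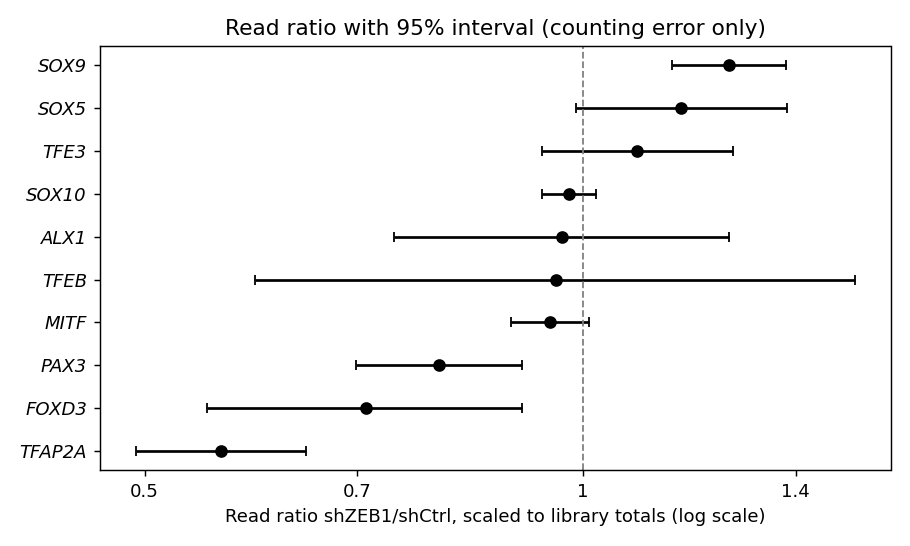
Read ratio of shZEB1 over shCtrl for each factor, scaled to library totals, on a log axis, with its exact binomial 95% interval (counting error only) and a dashed line at 1. The bars of TFAP2A, FOXD3 and PAX3 lie left of the line, that of SOX9 lies right of it, and the other 6 cross it.

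MITF and SOX10, the core pair of the pigment cell programme, stood at nearly the same level in both libraries. MITF, the basic helix-loop-helix leucine zipper factor that drives pigment genes, had 2120 reads and an FPKM of 55.1 in shCtrl, and 1944 reads and 52.2 in shZEB1. Its read ratio was 0.949 (interval 0.892 to 1.01). SOX10, a factor of the SOXE group that acts on MITF and on glial genes, had 4318 reads in shCtrl and 4081 in shZEB1, with a read ratio of 0.979 (interval 0.937 to 1.02). These intervals are narrow enough to exclude, as far as counting error goes, a MITF level in shZEB1 below 0.892 times or above 1.01 times that in shCtrl. They turned on the scaling, however. With edgeR's TMM factors the ratio was 0.914 for MITF (0.859 to 0.973) and 0.942 for SOX10 (0.902 to 0.983), both below 1. With TPM they were 0.985 and 1.02, and both intervals included 1. Exons of SOX10 overlap those of POLR2F, an RNA polymerase subunit gene on the opposite strand with 653 and 578 reads, and reads from the overlap cannot be told apart without strand.

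MITF is transcribed from several starts, and the deposited files give its transcripts as 1 sum. Of its 8 RefSeq transcripts in the files, NM_000248 is the M form, known as the melanocyte form. In GENCODE release 29 its counterpart starts at position 69936592 of chromosome 3, which is 197157 bases downstream of the first of these starts. The gene length that entered the FPKM was 4456 bases in shCtrl and 4457 in shZEB1, a difference of 0.83 bases, while the 8 RefSeq transcripts ranged from 1069 to 4814 bases in GENCODE. The gene entry also held 2 models with no RefSeq identifier, whose lengths were not used here. The M form measures 4479 bases. RSEM's gene length is a mean over the transcripts weighted by their estimated shares. It was nearly equal in the libraries, but several mixtures of transcripts can give the same mean, and the share of the M form was not measured here.

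The genes whose pair of levels lay closest to that of MITF were AKT1S1 (54.8 and 51.7 FPKM), ZDHHC12 and SNRNP25, at Euclidean distances of 0.015, 0.022 and 0.024 in log2(FPKM + 1) over the 2 libraries. For SOX10 they were MMP14 (176 and 169 FPKM), PSMD4 and PRKCSH, at 0.018, 0.028 and 0.032. With 2 libraries such closeness describes a level and a ratio and no more.

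TFAP2A showed the largest difference among the 10. It encodes activator protein AP-2 alpha, which works in the neural plate border, the crest and the pigment cell, and lies at chr6:10396677-10419659 (Entrez Gene 7020). It had 620 reads and an FPKM of 20.5 in shCtrl, and 338 reads and 11.3 in shZEB1. The level was 1.82-fold lower in shZEB1, with a read ratio of 0.564 (interval 0.493 to 0.646) and a log2 ratio of -0.81. Of all measured genes, 3.05% had a lower log2 ratio. The relative TFAP2C, AP-2 gamma, lay the other way, with 342 reads and 13.8 FPKM in shCtrl and 386 reads and 16.1 in shZEB1 (read ratio 1.17, interval 1.01 to 1.36). TFAP2A was therefore the more abundant of the pair in shCtrl and TFAP2C in shZEB1. TFAP2E had 17 and 6 reads, and TFAP2B and TFAP2D were in neither file. Exons of TFAP2A overlap the antisense genes TFAP2A-AS1 and TFAP2A-AS2, neither of which was listed under its own identifier.

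PAX3 and FOXD3, early factors of the crest, were also lower in shZEB1. PAX3, a paired-box factor that acts with SOX10 on MITF (Entrez Gene 5077, chr2:222199887-222298998), had 533 reads and an FPKM of 22.1 in shCtrl, and 410 reads and 16.5 in shZEB1. Its read ratio was 0.796 (interval 0.699 to 0.908), while its FPKM ratio was 0.747. The ratios part because the gene length used was 2810 bases in shCtrl and 2983 in shZEB1, a difference of 173 bases. Its entry held 8 RefSeq transcripts, of 959 to 3170 bases in GENCODE, and 2 models with no RefSeq identifier. FOXD3, a forkhead factor that keeps crest cells in a progenitor state and, in chick embryos, restrains MITF (Entrez Gene 27022, chr1:63322567-63325128), had 162 reads and 9.17 FPKM in shCtrl, and 111 reads and 6.48 in shZEB1. Its read ratio was 0.709 (interval 0.552 to 0.909). Exons of FOXD3 overlap the antisense gene FOXD3-AS1, which was not listed under its own identifier.

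In the PAX, FOXD and ALX families, few other members were present. PAX9 had 51 and 57 reads and PAX8 had 15 and 19, and PAX1, PAX4 and PAX7 were in neither file, PAX7 being the closest relative of PAX3. FOXD1, with 122 and 92 reads, had a read ratio of 0.781 whose interval of 0.589 to 1.03 included 1, and FOXD2 had 54 and 72 reads. ALX1, a homeobox factor of the cranial crest and facial skeleton (Entrez Gene 8092, chr12:85280220-85301784), had 121 reads and an FPKM of 9.91 in shCtrl, and 113 reads and 9.57 in shZEB1. Its read ratio of 0.967 carried an interval of 0.742 to 1.26. Its relative ALX4 was in neither file.

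SOX9 was the factor whose read interval lay above 1, while SOX5 and TFE3 had a higher FPKM in shZEB1 with an interval that included 1. It belongs to the SOXE group with SOX10, acts in the early crest and in cartilage, and can oppose SOX10 in melanoma (Entrez Gene 6662, chr17:72121020-72126416). It had 872 reads and an FPKM of 25.5 in shCtrl, and 1061 reads and 32.1 in shZEB1, a read ratio of 1.26 (interval 1.15 to 1.38). The ratio stayed above 1 with its interval under each scaling, from 1.21 with TMM to 1.31 with TPM. SOX10 had 6.85 times the FPKM of SOX9 in shCtrl and 5.32 times in shZEB1. SOX8, the third gene of the SOXE group, had 2 and 4 reads.

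SOX5, of the SOXD group, is known to work with SOX9 in cartilage and to dampen SOX10 on melanocyte genes in the mouse. It (Entrez Gene 6660, chr12:23529504-24562650) had 272 reads and an FPKM of 5.58 in shCtrl, and 307 reads and 6.75 in shZEB1. The read ratio of 1.17 had an interval of 0.989 to 1.38 that included 1, and with TPM the interval was 1.03 to 1.43. The gene length used was 5625 bases in shCtrl and 5427 in shZEB1, so the FPKM ratio of 1.21 exceeded the read ratio. Both lengths exceed the 4261 bases of the longest SOX5 transcript matched in GENCODE, and its entry held 2 models with no RefSeq identifier as well. The other SOXD genes were measured as well. SOX13 was more abundant than SOX5 in each library, at 29.8 and 31.99 FPKM, and SOX6 had 5.27 and 5.92 FPKM. Both intervals included 1. Of 19 SOX genes, 10 were measured and 7 were in neither file (SOX1, SOX3, SOX11, SOX14, SOX17, SOX21 and SOX30). SOX12 (9.01 and 10.9 FPKM) was the member besides SOX9 whose interval lay above 1, and no measured member had an interval below 1. SOX4 had 6.45 and 5.91 FPKM, SOX2 had 52 and 56 reads, SOX18 had 29 and 17, and SOX15 had 8 and 15.

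The relatives of MITF were less abundant and close between the libraries. TFE3 (Entrez Gene 7030, chrX:49028726-49043357) had 341 reads and an FPKM of 11.5 in shCtrl, and 359 reads and 12.5 in shZEB1, with a read ratio of 1.09 (interval 0.937 to 1.27). TFEB had 40 reads and 2.08 FPKM in shCtrl, and 37 reads and 1.94 in shZEB1. Its read ratio of 0.958 carried an interval of 0.596 to 1.54, so these reads did not exclude any ratio within those bounds. MITF had 4.78 times the FPKM of TFE3 in shCtrl and 4.18 times in shZEB1, and 26.5 and 26.9 times that of TFEB. TFEC, the fourth gene of the family, was in neither file.

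Genes known to be linked to MITF in pigment cells were then described, since several carry its binding motif near their start. The M-box core TCATGTG was searched on both strands in RefSeq promoter sequences (GRCh38.p14) that run from 250 bases before to 50 bases after the start of each gene. It was found in 2.99% of 27305 promoters and in 7 of the 46 promoters available for the 59 list genes (15.2%), several of which joined the list because MITF is known to bind there. The matches are given 5′ to 3′ on the strand of the gene, with the core or its reverse complement in capitals and 12 bases on either side.
TYR, chr11:89177758-89177788, plus strand: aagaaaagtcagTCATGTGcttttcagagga
TYRP1, chr9:12693228-12693258, plus strand: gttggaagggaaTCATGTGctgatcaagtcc
BCL2A1, chr15:79971204-79971234, minus strand: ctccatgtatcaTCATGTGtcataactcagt
SLC24A5, chr15:48120963-48120993, plus strand: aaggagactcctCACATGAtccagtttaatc
GPR143, chrX:9765890-9765920, minus strand: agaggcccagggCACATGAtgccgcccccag
GPR143, chrX:9765862-9765892, minus strand: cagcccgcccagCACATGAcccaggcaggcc
GPNMB, chr7:23246640-23246670, plus strand: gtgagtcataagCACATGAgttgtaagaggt
GPNMB, chr7:23246701-23246731, plus strand: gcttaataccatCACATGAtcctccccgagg
CEACAM1, chr19:42528504-42528534, minus strand: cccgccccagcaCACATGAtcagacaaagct

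These M-box genes did not share a direction. TYR, which opens melanin synthesis as tyrosinase, had 2717 and 2193 reads (read ratio 0.836, interval 0.790 to 0.884), and TYRP1, a later enzyme of the same path, had 5716 and 5636 (1.02, interval 0.984 to 1.06). BCL2A1, an inhibitor of apoptosis, was counted as lower by size, with an FPKM of 48.1 in shCtrl against 15.8 in shZEB1. GPNMB, a melanosomal glycoprotein gene, was lower by its interval (read ratio 0.835), whereas GPR143, a melanosomal receptor gene, was higher (read ratio 1.21, interval 1.03 to 1.43). CEACAM1, an adhesion molecule gene, had an FPKM of 3.60 in shCtrl against 8.16 in shZEB1, a log2 ratio of 0.99 just short of the size rule. SLC24A5, a melanosomal exchanger gene, had 528 and 453 reads with an interval that included 1 (0.782 to 1.01). A motif match describes letters in a window and is not evidence that MITF was bound there.

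Over the whole list of MITF-linked genes, 54 of 59 were measured, and the size rule counted 2 as lower and 0 as higher, beside 1.61% and 0.937% of all measured genes. Of those 54, MET, a receptor kinase gene, reached the FPKM minimum in shZEB1 only (0.76 and 1.47 FPKM), so that it could pass only as higher. The other gene counted was PHACTR1, a regulator of actin, with an FPKM of 21.4 and 8.35. Its exons overlap those of TBC1D7 on the opposite strand. By the interval, 13 were higher, with MET among them, and 21 were lower, beside 27.9% and 21.4% of all measured genes. The minimum had fixed the direction of MET. The other 20 included 1, and the median log2 ratio was -0.06. The most abundant were PMEL, the amyloid scaffold of the melanosome (703 and 405 FPKM), VAT1 (304 and 256) and TYRP1 (223 and 228). PMEL had a read ratio of 0.579 (interval 0.563 to 0.596), and its exons overlap those of CDK2, another gene of the list that was lower (109 and 69.7 FPKM). DCT, which acts between the tyrosinase and TYRP1 steps, had 225 and 123 FPKM. The summed FPKM of the list was 3358 in shCtrl and 2639 in shZEB1.

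Genes linked to SOX10 in glia and Schwann cells lay mostly lower in shZEB1, although SOX10 itself had a read ratio of 0.979. Of 18 genes 13 were measured. By the interval, 0 were higher and 10 were lower, beside 27.9% and 21.4% of all measured genes. The other 3 included 1, and the median log2 ratio was -0.46. Like the other lists, this one was chosen with earlier results of these data known. S100B, a calcium-binding protein gene, had 146 and 124 FPKM. PMP22, of peripheral myelin, had 131 and 95.1, and GJB1, a connexin, had 135 and 89.8. NGFR, the low-affinity neurotrophin receptor and a crest stem cell marker, was counted as lower by size, beside 1.61% of all measured genes. It had 74.2 and 36.5 FPKM (read ratio 0.493, interval 0.457 to 0.531). EDNRB, an endothelin receptor gene, and CDH19, a cadherin gene, were among those whose interval included 1, and were named after their values were seen. MBP is in this list and in the MITF list, and EDNRB is also among the inputs to MITF. NGFR is also among the genes of low-MITF melanoma states, and S100B, CDH19 and EDNRB are among the melanocyte markers.

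Of 13 cartilage genes linked to SOX9, 7 were measured, and 2 of these, COL9A1 and HAPLN1, passed the FPKM minimum in shZEB1 only, which fixed their direction. Of the other 5, by the interval 3 were higher, 1 was lower and 1 included 1, beside 27.9% and 21.4% of all measured genes on the higher and the lower side. COL11A2, a fibrillar collagen gene, was counted as higher by size, beside 0.937% of all measured genes. It had 8.87 FPKM in shCtrl against 19.2 in shZEB1 (read ratio 2.103, interval 1.88 to 2.36). Its expected counts were not whole, so part of its reads was shared with other models. COL9A3 had 175 and 212 FPKM and COL9A2 had 14.4 and 19.4, both type IX collagen genes. Exons of COL9A3 overlap those of TCFL5 on the opposite strand, which had 563 and 588 reads. Named after their values were seen, COL9A1 had 8 and 35 reads (0.24 and 1.10 FPKM) and HAPLN1, a link protein gene, 19 and 46 (0.47 and 1.18 FPKM), while MATN3, a matrilin gene, was the lower one (8.07 and 4.67 FPKM). The gene left with an interval that included 1 was SOX6. The classical cartilage genes COL2A1, with 4 and 6 reads, and ACAN, with 11 and 8, were too scarce to be measured.

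**Figure D4:**
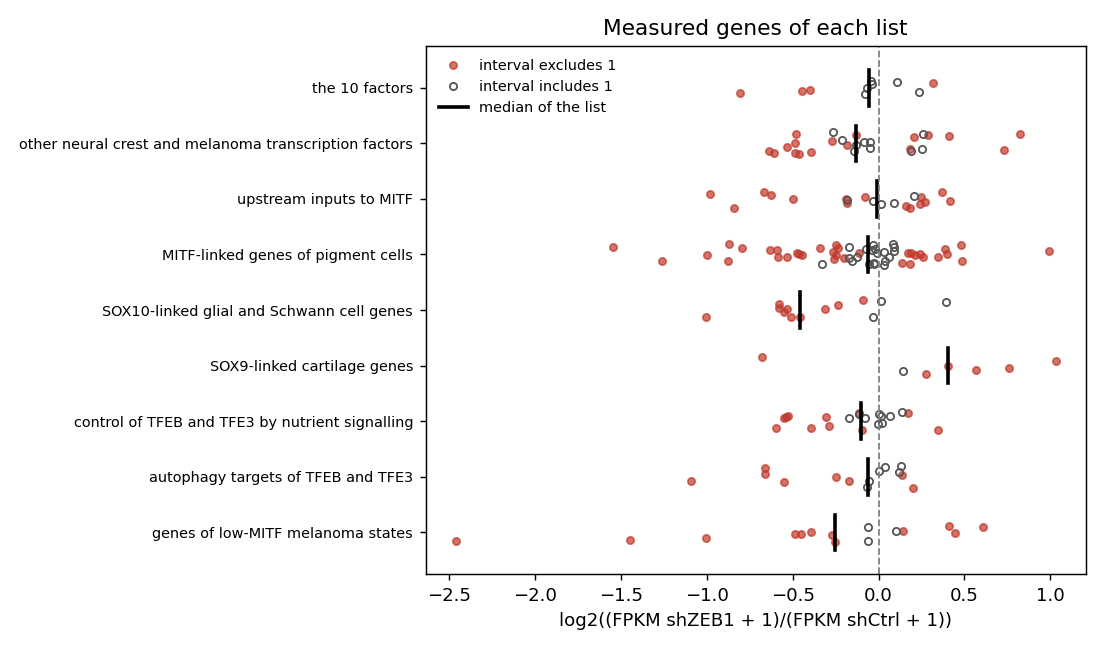
Log2((FPKM shZEB1 + 1)/(FPKM shCtrl + 1)) of the measured genes of each list, 1 point per gene, filled where the read interval excludes 1 and open where it includes 1, with a black bar at the list median. The 10 factors centre on -0.06 and the SOX10-linked glial genes on -0.46. The SOX9-linked cartilage genes centre on 0.40, but 2 of the 7 reached the FPKM minimum in shZEB1 only. That fixed their direction, so the minimum itself raises this centre.

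The signals that act on MITF differed in both directions. Of 24 inputs 20 were measured, and by the interval 7 were higher and 8 were lower, beside 27.9% and 21.4% of all measured genes, and 5 included 1, with 0 counted by size and a median log2 ratio of -0.01. ATF4, a stress factor known to repress MITF, had an FPKM of 350 in shCtrl against 248 in shZEB1. CTNNB1, the beta-catenin gene, had 259 and 246. BHLHE40, a helix-loop-helix repressor known to act on the MITF gene, had 80.2 and 44.3 (read ratio 0.554, interval 0.515 to 0.596). MC1R, the melanocortin receptor through which cyclic AMP raises MITF, had 56.1 and 34.9 FPKM, but its exons overlap TCF25. MC1R was named after its values were seen.

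Other transcription factors of the crest and of melanoma lay on both sides. Of 32 genes 27 were measured, and by the interval 6 were higher and 11 were lower, beside 27.9% and 21.4% of all measured genes, and 10 included 1, with 0 counted by size and a median log2 ratio of -0.13. ID3, an inhibitor of helix-loop-helix factors, had an FPKM of 82.6 in shCtrl against 147 in shZEB1 (read ratio 1.79, interval 1.65 to 1.95). MYC had 88.1 and 66.7, and ETS1, a crest factor, 67.4 and 46.2. ZEB2, the paralog of the targeted gene, was in this list and had 16.3 and 11.3 FPKM. SNAI1 and SNAI2, related zinc-finger repressors, lay in opposite directions, named after their values were seen. SNAI1 had a read ratio of 1.72 (interval 1.43 to 2.08) and SNAI2 of 0.714 (interval 0.647 to 0.789).

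Genes of low-MITF melanoma states lay on both sides. Of 19 genes 15 were measured, and by the interval 4 were higher and 8 were lower, beside 27.9% and 21.4% of all measured genes, and 3 included 1, with a median log2 ratio of -0.25. The 3 counted as lower by size, beside 1.61% of all measured genes, were NGFR, JUN, an AP-1 factor gene (30.7 and 4.75 FPKM), and CCN1, a matricellular protein gene (39.3 and 13.8). TNC, the tenascin C gene, had 218 and 159 FPKM and FOSL1 had 101 and 71.4, whereas FN1, the fibronectin gene, had 97.5 and 149. AXL, a receptor kinase that defines such states, was present in both libraries at 11.1 and 9.12 FPKM (read ratio 0.826, interval 0.716 to 0.952). It was named after its values were seen.

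The machinery that sets whether TFEB and TFE3 reside in the cytoplasm or the nucleus was measured for all 20 genes listed. By the interval 2 were higher and 9 were lower, beside 27.9% and 21.4% of all measured genes, and 9 included 1, with 0 counted by size and a median log2 ratio of -0.10. The most abundant were YWHAZ, a 14-3-3 protein gene (256 and 240 FPKM), LAMTOR4 of the Ragulator complex (144 and 137) and XPO1, the nuclear exporter (88.3 and 81.5). Of 15 autophagy targets, among them TFEB itself, 14 were measured, with 2 higher and 6 lower, beside 27.9% and 21.4% of all measured genes, 6 including 1, and a median of -0.06. WIPI1, a phosphoinositide-binding autophagy gene, was counted as lower by size (59.8 and 27.5 FPKM), beside 1.61% of all measured genes, and its exons overlap those of ARSG on the opposite strand. SQSTM1, the autophagy receptor p62, had 180 and 185 FPKM, BNIP3 had 106 and 89.3, and BECN1 had 70.6 and 77.8. Exons of SQSTM1 overlap those of MGAT4B and MRNIP on the opposite strand. Those of BECN1 overlap CNTD1 and PSME3, also on the opposite strand, and PSME3 had 2725 reads in shCtrl and 2445 in shZEB1.

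Promoter sequences were available for 7 of the 10 factors: MITF, PAX3, TFAP2A, SOX5, FOXD3, TFE3 and TFEB. The E-box known for ZEB1, CACCTG or its reverse complement CAGGTG, was found in 0 of these 7 and in 20.6% of all 27305 promoters. The M-box core was likewise in 0 of 7. The CACGTG E-box was in 1 of 7, against 7.43% of all, and the SOX-type core ACAAAG or ACAATG in 3 of 7 (MITF, SOX5 and FOXD3), against 24.6%. The window used for MITF is that of its first start and does not reach the start of the M form. FOXD3, which was lower in shZEB1, was the factor that held both of the last motifs. They are shown 5′ to 3′ on the plus strand, with the match or its reverse complement in capitals.
FOXD3 E-box, chr1:63322499-63322528: gtcacgcacggtCACGTGgccccgcctccc
FOXD3 SOX-type core, chr1:63322429-63322458: cgtctctcgtccCTTTGTtgacaattccct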

How the data were processed

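DESeq, RSEM 1.2.8, HISAT2 2.1.0, Bowtie2 2.2.5 and the hg38 build are named in the submitters' processing notes. The sources used here give neither their order nor the settings or strand handling. Per the file headers, the authors deposited an expected count (estimated reads), an FPKM value and a gene length for each gene, for each library alone. Expected counts that are not whole come from reads shared out between models. No gene was listed at 0, so a gene missing from a file was entered at 0.

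The 10 genes and the 20 gene lists beside them were chosen with earlier results of these data known. Of 15217 numeric identifiers, 15183 matched a symbol in RefSeq GRCh38.p14, which also gave coordinates and promoters. Exon overlaps and transcript lengths came from GENCODE release 29. A pseudocount of 1 was added to FPKM, which understates the difference of low genes. Read intervals are exact conditional binomial (Clopper-Pearson) 95% intervals on expected counts rounded to whole numbers, and levels carry Poisson intervals. Reads had no molecular identifiers and PCR copies are not independent, so both may be too narrow. The size rule was checked on simulated data, drawn as Poisson counts around the shCtrl values with known changes planted in some genes. Such counts hold no spread between cultures, so the check covers counting error only. Genes named besides the 10 were those of each list counted by size (up to 4), its 3 most abundant, relatives of the 10 with an FPKM of at least 1 or in neither file, and others stated as chosen after their values were seen. Alternatives were a pseudocount of 0.1, TPM, edgeR 4.0.16 TMM factors, DESeq2 1.42.0 size factors (1 for both libraries), other FPKM minimums, a 1.5-fold rule and a shorter promoter window. With 1 library per group no dispersion can be estimated, so no edgeR or DESeq2 test was run. Scripts ran in R 4.3.3 and in Python 3.11.15 with SciPy 1.17.1, pandas 2.3.3, Matplotlib 3.10.9 and NumPy 2.4.6.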

Additional observations from a re-analysis of the deposited data

How the results depend on the processing

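The log2 ratios of the 10 factors were recomputed with a pseudocount of 0.1, TPM, TMM factors and DESeq2 size factors, which gave 40 values, all inside the main read interval of the gene. The sign turned for SOX10 (0.02) and ALX1 (0.00) with TPM, both with an interval that included 1. The size rule counted 0 factors in either direction under each setting except the 1.5-fold rule, where it counted 1 as lower, TFAP2A. By the read interval, 2 factors were higher with TPM, SOX9 and SOX5. With TMM and with DESeq2 size factors 5 were lower, PAX3, TFAP2A, FOXD3, MITF and SOX10. The median log2 ratio of the 10 ranged from -0.11 with TMM to -0.01 with TPM. The promoter motif counts were the same in the 250 bases before the start alone. No paired analysis was possible because each group had 1 library, and no library could be left out. Depth limits TFEB most, with 40 and 37 reads.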
